A study of Mus musculus with 15 samples.

Results

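The 10 genes described here encode the Chd chromatin remodelers of the mouse, Chd1 to Chd9 and the related Chd1l. They were chosen by name: each transcript of the count table was given its gene symbol, and the 10 transcripts carrying these symbols were taken, of 21727 transcripts in all. The values are counts of ribosome-protected fragments (RPFs), the stretches of mRNA that a ribosome shields from RNase, and so follow both the amount of an mRNA and the number of ribosomes on it. The cells were E14Tg2a.4 mouse embryonic stem cells (mESCs) grown on gelatin with serum and leukemia inhibitory factor. Rps27-FLAG and Rps27l-FLAG cells carry a 3xFLAG tag at the end of both endogenous copies of Rps27 or of its paralog Rps27l, which encode alternative versions of one protein of the small ribosomal subunit, and WT cells carry no tag. Each line was represented by 3 clones. RPFs of all ribosomes (total RPF) were sequenced from every clone, and RPFs of ribosomes pulled down with anti-FLAG (IP RPF) from every tagged clone, which gives 15 libraries in 5 groups of 3. No IP library of untagged cells was analysed here, so what a pull-down without tag would hold was not measured. The replicate number marks the sequencing pool. Within a tagged line, IP and total libraries with the same number were made from one clone.

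Chd proteins move nucleosomes with the energy of ATP, through a Snf2-type helicase domain. Chd1 to Chd9 carry paired chromodomains in front of it, and fall into subfamily I (Chd1 and Chd2), subfamily II (Chd3, Chd4 and Chd5, alternative ATPases of the NuRD deacetylase complex) and subfamily III (Chd6 to Chd9). Chd1l, also called Alc1, has no chromodomains but a macrodomain that binds poly(ADP-ribose) at DNA breaks. In mESCs, Chd1 is known for keeping chromatin open and Chd4 for silencing lineage genes together with NuRD.

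Each member holds 1 stretch that encodes helicase motif I, the loop that holds ATP, though the codons differ between members. A stretch of 42 bases around it is printed from each tabled transcript (GRCm38, coding strand, 5′ to 3′), with the 24 bases of motif I in capitals, because the whole family encodes this loop and an RPF is shorter than the stretch, so that it shows how far reads of the members can be told apart.
Chd1: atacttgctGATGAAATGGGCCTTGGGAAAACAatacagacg
Chd2: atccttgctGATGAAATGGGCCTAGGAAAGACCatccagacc
Chd3: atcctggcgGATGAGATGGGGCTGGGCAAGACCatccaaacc
Chd4: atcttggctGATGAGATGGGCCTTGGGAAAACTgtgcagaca
Chd5: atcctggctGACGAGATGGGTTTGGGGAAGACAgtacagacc
Chd6: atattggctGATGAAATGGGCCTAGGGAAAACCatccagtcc
Chd7: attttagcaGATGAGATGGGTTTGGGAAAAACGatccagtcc
Chd8: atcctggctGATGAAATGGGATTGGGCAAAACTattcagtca
Chd9: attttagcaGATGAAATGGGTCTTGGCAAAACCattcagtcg
Chd1l: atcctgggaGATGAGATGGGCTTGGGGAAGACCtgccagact

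Even in this stretch, any 2 members differed by 6 (Chd2 and Chd6) to 15 of 42 bases. Over whole coding sequences (CDSs), windows of 28 nt, about the length of an RPF, were rarely shared with another gene: 20 of 6138 windows of Chd3, 19 of 5718 of Chd4, 17 of 5829 of Chd5, 9 of 8580 of Chd9 and 0 in the other 6 members. Chd3, Chd4 and Chd5 shared windows with one another, and the authors kept unique alignments, so that reads there are lost and not shared out.

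The members are long genes. Their CDSs ran from 2700 nt (Chd1l) to 8958 nt (Chd7) with a median of 6010.5 nt, against 1440 nt over the 10085 transcripts that passed the filter on low counts (over 2 CPM, counts scaled to a common library total, in at least 14 libraries). All 10 members passed it. In GRCm38 the genes lie on 9 chromosomes: Chd1 at chr17:15704967-15772610 with 36 exons, Chd2 at chr7:73426638-73541746 with 39, Chd3 at chr11:69343273-69369406 with 40, Chd4 at chr6:125095981-125130591 with 39 and Chd5 at chr4:152338651-152390194 with 42. Chd6 lies at chr2:160946978-161109022 with 37 exons, Chd7 at chr4:8691365-8867659 with 38, Chd8 at chr14:52198151-52257780 with 38, Chd9 at chr8:90828352-91054516 with 40 and Chd1l at chr3:97560742-97610203 with 23. RPFs were counted in coding exons only.

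Library totals ran from 3972152 to 8064166 counts, and the members took 0.211% to 0.242% of them. The libraries carried the RPFs of mESCs, for instance 598 to 784 CPM for Nanog and 413 to 506 for Pou5f1. Of the markers of other cell types, the fibroblast genes Postn and Col3a1 had at most 1 and 4 counts in any library and the mesoderm genes T, Mesp1 and Mixl1 at most 5, 3 and 10, while Thy1 reached 24.1 CPM and the neural marker Pax6 varied from 0.781 to 20.0 CPM. Summed over each marker list, fibroblast, primitive endoderm, neural and mesoderm genes came to at most 33.2, 16.7, 22.8 and 2.25 CPM in a library, and the 10 stem cell markers to at least 4223. In such bulk samples fewer cells of a type and less RNA per cell cannot be told apart.

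To see which Chd genes mESCs translate most, levels were compared per kb of counted CDS over the 9 total RPF libraries. Chd4 was far above the other members at 233.9 ± 11.2 normalized CPM per kb (SD, n = 9), and held 57.5% of all Chd counts of these libraries. Chd1 followed at 47.6 ± 2.59, Chd8 at 39.2 ± 5.01 and Chd1l at 24.0 ± 1.95 (SD, n = 9 each). These 4 differed in that order without overlap between libraries, except Chd1 and Chd8, whose ranges met. Within a library Chd1 lay above Chd8 in all 9.

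Below them came Chd7, mutated in CHARGE syndrome, at 15.7 ± 0.998 CPM per kb, Chd2 at 10.9 ± 2.12, Chd6 at 9.80 ± 1.08 and Chd9 at 8.89 ± 0.699 (SD, n = 9 each). Chd1l lay above Chd7 in every library, but within Chd7, Chd2, Chd6 and Chd9 each gene overlapped the next. Chd7 lay above Chd2 in 8, Chd2 above Chd6 in 6 and Chd6 above Chd9 in 8 of the 9 libraries. Chd5 and Chd3 were lowest, at 2.51 ± 0.357 and 2.00 ± 0.269 CPM per kb (SD, n = 9 each), and lay below Chd9 in every library. Their ranges overlapped, though within a library Chd5 lay above Chd3 in all 9. Among the ATPases of NuRD, Chd4 was thus 93.1 times Chd5 and 117 times Chd3 per kb. The median of all tested transcripts was 25.6 CPM per kb, so Chd4, Chd1 and Chd8 were above it, at the 92.1, 65.9 and 60.9 percentile, and the 7 others below.

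**Figure D1:**
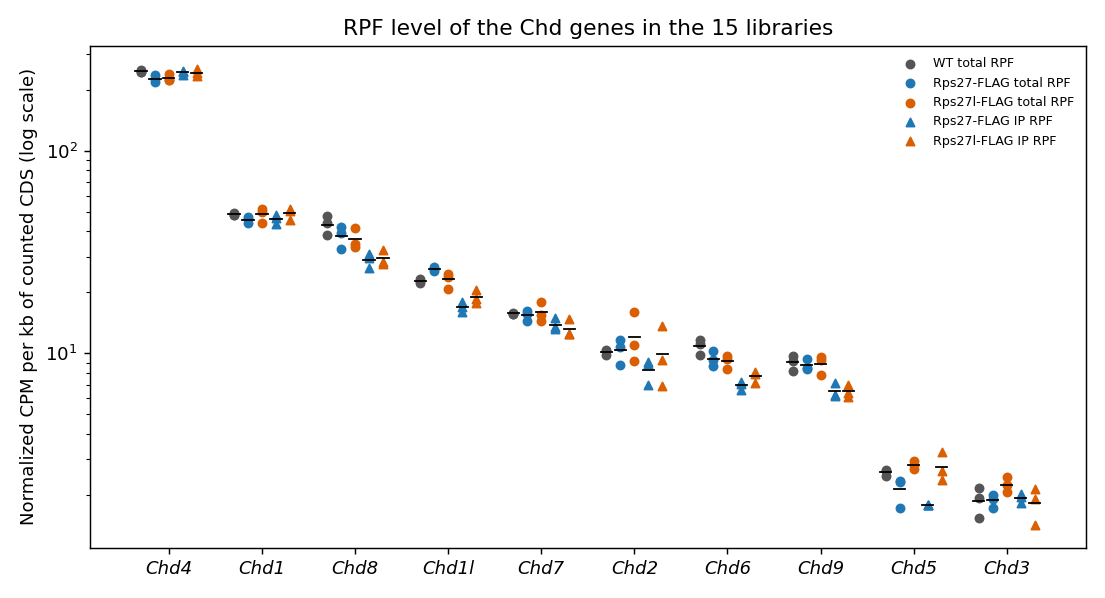
Level of each Chd gene in the 15 libraries as normalized CPM per kb of counted CDS (log scale), genes ordered by their mean over the total RPF libraries. Circles are total RPF libraries, triangles IP RPF libraries, colors mark the line and short bars the mean of 3 libraries. Chd4 lies near 233.9 in total libraries, and Chd5 and Chd3 near 2.51 and 2.00.

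For scale, the tested partners of Chd4 in NuRD ran from 6.57 CPM per kb for Mbd2, a reader of methylated DNA, to 672 for the histone chaperone Rbbp4. Between them lay 101.9 for Mbd3, the paralog of Mbd2, 114 for Mta2 and 410.1 for the deacetylase Hdac1. Cdk2ap1, and Adnp among the binding partners followed below, were at 0 in every total library and were not tested. Whether their reads were absent or lost in alignment was not examined, so the 0 is not read as lack of translation. Of the members, Chd2 varied most between libraries (SD 0.32 of log2 CPM over all 15). The tested transcripts that followed Chd2 most closely over the 15 libraries were Mtm1, Clp1 and Fig4 (Pearson r = 0.921, 0.919 and 0.913). Those closest to Chd4, the member with the most counts, were Leprotl1, Gm2a and Esrp2 (r = 0.835, 0.790 and 0.789). These were the 3 highest of 10085 for each gene, over libraries that share clones and pools, and are given without a test.

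Total RPFs were then compared between lines, which asks whether the tags themselves moved the translation of Chd mRNAs. No member passed an adjusted p of 0.05 by edgeR in Rps27-FLAG against WT, in Rps27l-FLAG against WT or between the tagged lines, and neither did any other transcript (0% called in each). With voom and with DESeq2 the count of members was 0 as well. An unadjusted p below 0.05 was reached by 2, 1 and 1 of the 10 members, and by 294, 574 and 580 of all 10085 tested transcripts. With the replicate number as a block the count of members was again 0, while 0.00992% of transcripts were called in Rps27-FLAG against WT, 1.43% in Rps27l-FLAG against WT (0.367% higher, 1.06% lower) and 1.36% between the tagged lines (0.645% higher, 0.714% lower).

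Chd4 was the member whose total RPFs set WT apart from both tagged lines. Normalized CPM were 1384, 1421 and 1390.0 in WT replicates 1, 2 and 3, 1339, 1285 and 1244 in Rps27-FLAG and 1276, 1363 and 1268 in Rps27l-FLAG. All 6 tagged libraries lay below the 3 WT libraries, as did those of 1.07% of tested transcripts, while for 0 members and 0.932% of transcripts they all lay above. The log2 difference from WT was -0.12 (SE 0.048, edgeR adjusted p = 0.999) in Rps27-FLAG and -0.10 (SE 0.048, adjusted p = 0.821) in Rps27l-FLAG, and neither passed the test.

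Chd8, which binds beta-catenin and is a leading autism gene, had 294, 336 and 365 CPM in WT, 251, 324 and 301 in Rps27-FLAG and 258, 265 and 318 in Rps27l-FLAG. Within each of the 3 sequencing pools the tagged clones were below WT, though over pools the groups overlapped. Chd6 had 78.8, 90.2 and 94.0 CPM in WT, 70.0, 82.9 and 75.0 in Rps27-FLAG and 67.2, 78.7 and 75.6 in Rps27l-FLAG, with all Rps27l-FLAG values below WT. For Rps27l-FLAG against WT the log2 differences were -0.24 (SE 0.116, edgeR adjusted p = 0.821) for Chd8 and -0.25 (SE 0.097, adjusted p = 0.821) for Chd6. With the replicate block their adjusted p-values were 0.112 (SE 0.067) and 0.116 (SE 0.069), the lowest of the members in any total RPF comparison.

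Chd1l was highest in Rps27-FLAG. It had 58.6, 59.9 and 61.4 CPM in WT, 69.0, 70.4 and 67.6 in Rps27-FLAG and 63.1, 65.4 and 54.9 in Rps27l-FLAG. Rps27-FLAG was above both other lines without overlap, by a log2 difference of 0.20 from WT (SE 0.081, edgeR adjusted p = 0.999), and Rps27l-FLAG was below Rps27-FLAG by -0.17 (SE 0.080, adjusted p = 0.803). Chd5, best known from brain and testis, had 99 to 132 counts per library in Rps27l-FLAG and 61 to 105 in Rps27-FLAG, a log2 difference of 0.40 (SE 0.141, edgeR adjusted p = 0.803). The counts of members without overlap were 3 below and 1 above WT in Rps27-FLAG, where 4.44% and 4.08% of transcripts behaved so, and 2 below and 1 above in Rps27l-FLAG, against 4.85% and 4.8%. Between the tagged lines, 1 member was lower and 2 were higher in Rps27l-FLAG without overlap, against 5.77% and 5.73% of transcripts. Chd2 stood out in a single clone: total RPFs of Rps27l-FLAG replicate 3 had 86.6 CPM, while the other 8 total libraries had 47.5 to 63.2.

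**Figure D2:**
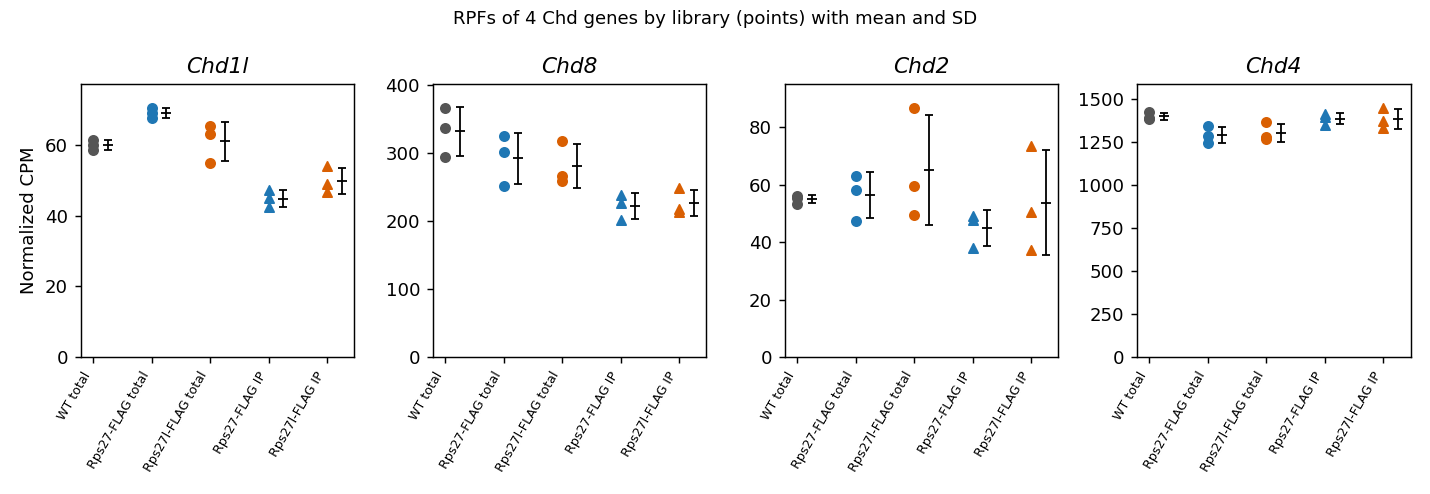
Normalized CPM of Chd1l, Chd8, Chd2 and Chd4 (vertical axes from 0) in the 5 groups; points are libraries, the bar beside them the mean and SD of 3. Chd1l IP libraries lie at 42.4 to 54.0 and its total libraries at 54.9 to 70.4, whereas Chd4 IP libraries lie at 1327 to 1443, within or above its total libraries.

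IP RPFs were next compared with total RPFs in each tagged line, which asks how strongly each mRNA was represented on ribosomes that carry the tagged protein. In Rps27-FLAG cells, 3 of 10 members were lower in IP, Chd1l, Chd6 and Chd9, and 0 were higher, against 5.34% of all tested transcripts called lower and 0.327% called higher (5.67% in all). In Rps27l-FLAG cells 0 members were called in edgeR, against 3.1% of transcripts (2.27% lower, 0.833% higher). An unadjusted p under 0.05 was reached there by 5 members, all lower, and by 1752 of 10085 transcripts (1139 lower, 613 higher). By voom 0 members were called and by DESeq2 1, Chd9, and the shares of all transcripts by these tools are not given here. The clone gives a paired design. With the clone as a block, 7 members were called in each line, the same 7: Chd2, Chd6, Chd7, Chd8, Chd9 and Chd1l lower and Chd4 higher. That fit called 41.2% of all tested transcripts in Rps27-FLAG (22.9% lower, 18.3% higher) and 31% in Rps27l-FLAG (19% lower, 12% higher). Its p-values rest on 3 pairs per line and on a variance estimate shared over all tested transcripts. In the tagged lines the sum of the 10 stem cell markers differed between the fractions too, at 4398 to 4682 CPM in total and 5052 to 5226 in IP libraries. Both fractions of a clone were taken from the same ribosome pellets, and so from the same cells. What the marker difference has to do with these results was not tested.

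Chd1l had the lowest IP value relative to total of the members in Rps27-FLAG cells. There its total RPFs of 69.0, 70.4 and 67.6 CPM stood against IP RPFs of 47.2, 42.4 and 44.9, and no libraries overlapped. The log2 fold change was -0.62 (SE 0.076, edgeR adjusted p = 0.00387), a 1.54-fold lower level. In Rps27l-FLAG cells total RPFs of 63.1, 65.4 and 54.9 CPM stood against IP RPFs of 54.0, 46.8 and 49.1, again without overlap, and the log2 fold change was -0.29 (SE 0.100, adjusted p = 0.181; with the clone block SE 0.066, adjusted p = 0.000288).

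The subfamily III members were lower in IP as well. Chd9 had 72.7, 80.2 and 71.6 CPM in total and 53.3, 60.9 and 52.5 in IP RPFs of Rps27-FLAG (log2 fold change -0.43, SE 0.088, edgeR adjusted p = 0.0323), and 78.9, 82.4 and 66.5 against 52.2, 59.8 and 54.7 in Rps27l-FLAG (-0.45, SE 0.103, adjusted p = 0.0581; with the clone block 4.98e-09). Chd6 had IP values of 53.3, 56.9 and 58.0 CPM in Rps27-FLAG (log2 fold change -0.44, SE 0.086, edgeR adjusted p = 0.0274) and of 57.3, 65.2 and 63.6 in Rps27l-FLAG (-0.25, SE 0.091, adjusted p = 0.205; with the clone block 0.000470). In both genes every IP library lay below every total library of its line.

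Chd8, the member of this subfamily with the most counts, had IP values of 202, 239 and 226 CPM in Rps27-FLAG and 212, 217 and 249 in Rps27l-FLAG, all below the totals given above. Its log2 fold changes were -0.39 (SE 0.106, edgeR adjusted p = 0.0760) and -0.31 (SE 0.096, adjusted p = 0.142). With the clone block the adjusted p-values were 9.43e-30 and 1.68e-11, which lean on variance shared over transcripts. The log2 ratios of the 3 clones were -0.31, -0.44 and -0.41 in Rps27-FLAG and -0.28, -0.29 and -0.35 in Rps27l-FLAG. IP and total libraries thus did not overlap for Chd6, Chd8, Chd9 and Chd1l in either line, 4 of 10 members, where 17% of all tested transcripts in Rps27-FLAG and 14.2% in Rps27l-FLAG had every IP library below every total library. Chd7 moved less: 129, 139 and 143 CPM in total and 119.8, 118 and 132 in IP of Rps27-FLAG gave -0.15 (SE 0.072, adjusted p = 0.257; with the clone block 0.00104), and Rps27l-FLAG gave -0.27 (SE 0.105, adjusted p = 0.240; with the clone block 4.52e-07).

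In subfamily I the paralogs Chd1 and Chd2 parted. Chd1 had 223, 239 and 233 CPM in total and 219, 236 and 245 in IP of Rps27-FLAG, and its log2 fold change was 0.01 (SE 0.065) there and 0.02 (SE 0.079) in Rps27l-FLAG, with no call in any of these fits. Chd2 was lower in IP in each of the 6 clones, by log2 ratios of -0.33, -0.36 and -0.28 in Rps27-FLAG and -0.24, -0.40 and -0.23 in Rps27l-FLAG. The clone with high Chd2 had 73.6 CPM in IP against 86.6 in total, so that its ratio was like that of the other clones. Without the block Chd2 was not called (edgeR adjusted p = 0.222 and 0.675), and with it the adjusted p-values were 7.65e-06 and 0.000288.

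In subfamily II, Chd4 was the single member called higher in IP with the clone block. All 6 clones had a ratio above 0, at log2 values of 0.06, 0.13 and 0.12 in Rps27-FLAG and 0.06, 0.08 and 0.11 in Rps27l-FLAG. The change was small, 0.10 (SE 0.030 with the clone block, adjusted p = 0.00314) and 0.08 (SE 0.026, adjusted p = 0.00975), and without the block it was not called (adjusted p = 0.341 and 0.462). Chd4 IP libraries of Rps27-FLAG, at 1348 to 1409.6 CPM, all lay above its totals, a pattern that 11.3% of transcripts had there. In Rps27l-FLAG it was shown by 0 members and 9.11% of transcripts. Chd3 and Chd5, with 34 to 86 counts per IP library, had ratios on both sides of 0 within a line, from -0.63 to 0.19 for Chd3 and from -0.40 to 0.28 for Chd5, and were not called.

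**Figure D3:**
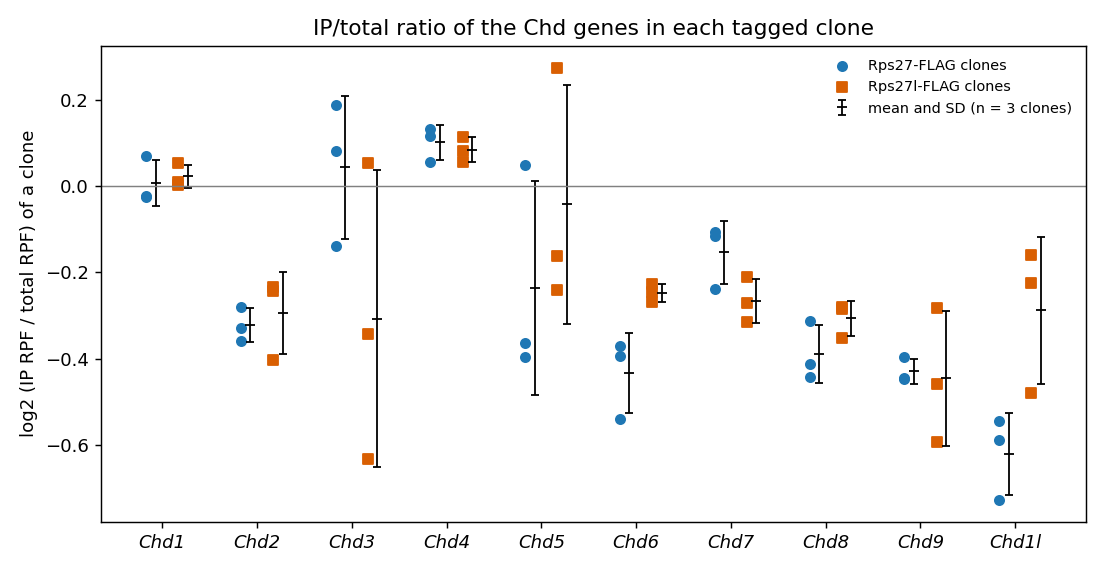
Log2 ratio of IP RPF to total RPF (normalized CPM) in each of the 6 tagged clones for the 10 Chd genes; circles are Rps27-FLAG and squares Rps27l-FLAG clones, bars give the mean and SD of 3 clones. Chd2, Chd6, Chd7, Chd8, Chd9 and Chd1l lie below 0 in all 6 clones, Chd4 above 0 in all 6, and Chd1l and Chd6 show separate ranges in the lines.

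Length moved together with these ratios. Over all tested transcripts the median log2 ratio fell from 0.21 for CDSs under 500 nt to -0.12 at 2000 to 3000 nt and -0.37 at 5000 to 9000 nt in Rps27-FLAG, and from 0.16 to -0.11 and -0.30 in Rps27l-FLAG. All members but Chd1l belong to the 409 transcripts of 5000 to 9000 nt. The median over the 10 members was -0.29 in Rps27-FLAG and -0.27 in Rps27l-FLAG, and over all tested transcripts -0.01 and -0.03. In Rps27-FLAG, Chd2, Chd6, Chd8 and Chd9 (-0.33 to -0.44) lay near the median of their length class, Chd1, Chd3, Chd4, Chd5 and Chd7 (-0.26 to 0.10) above it, and Chd1l below that of its own. In Rps27l-FLAG, Chd9 and Chd1l lay below the median of their class. Chd2, Chd3, Chd6, Chd7 and Chd8 (-0.25 to -0.31) lay near that of theirs, and Chd1, Chd4 and Chd5 (-0.04 to 0.08) above it.

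When the trend with CDS length was removed from each library and the clone kept as a block, members of both signs were called. In Rps27-FLAG, Chd4 (log2 fold change 0.40, SE 0.032), Chd1 (0.28, SE 0.034) and Chd7 (0.25, SE 0.041) were called higher and Chd1l lower (-0.50, SE 0.062), where 30.5% of transcripts were called (12.3% higher, 18.2% lower). In Rps27l-FLAG, Chd4 (0.31, SE 0.027) and Chd1 (0.23, SE 0.033) were higher and Chd1l (-0.20, SE 0.066) and Chd9 (-0.16, SE 0.062) lower, where 22.4% were called (9.14% higher, 13.2% lower). Chd2, Chd6 and Chd8 were within 0.06 of 0 in both lines and not called. Chd3, with few counts, was not called either, at 0.34 in Rps27-FLAG (SE 0.142, edgeR adjusted p = 0.0563), above Chd1 and Chd7, and -0.02 in Rps27l-FLAG (SE 0.143). Chd4 then stood at the 99.0 percentile of all tested transcripts in Rps27-FLAG and at the 98.5 percentile in Rps27l-FLAG. Without the block, the trend removed left Chd4 higher and Chd1l lower in Rps27-FLAG (edgeR adjusted p = 0.0239 each) and 0 members called in Rps27l-FLAG. That fit called few of all tested transcripts, and hardly any in Rps27l-FLAG, as counted in the closing section on processing.

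**Figure D4:**
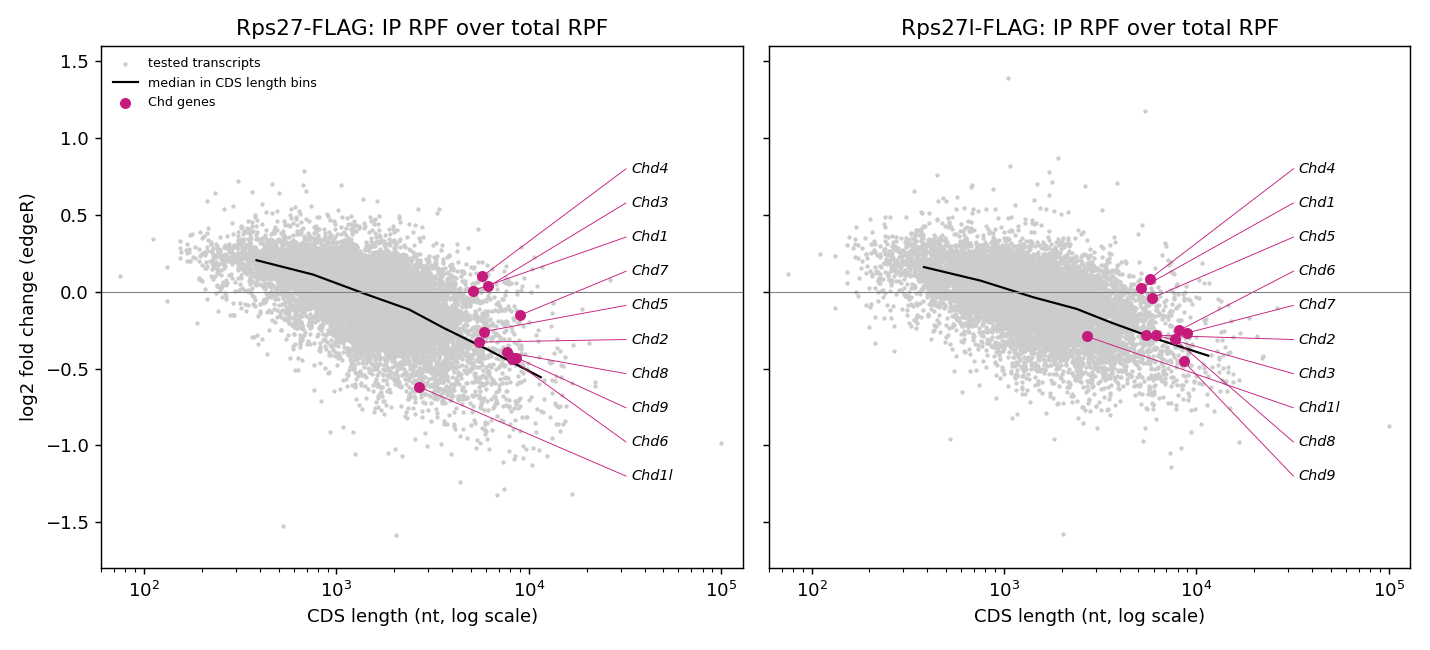
Log2 fold change of IP RPF over total RPF against CDS length (log scale) for the tested transcripts (grey), with the median in length classes (black line) and the Chd genes (magenta, labelled), in Rps27-FLAG (left) and Rps27l-FLAG (right). Chd1l lies below the line at 2700 nt, and Chd4 and Chd1 lie above it at 5745 and 5133 nt.

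The effect of IP was then compared between the lines, which asks whether a Chd mRNA was found on Rps27l-ribosomes more or less than on Rps27-ribosomes once each clone's total RPFs are allowed for. One member was called. Chd1l was less depleted on Rps27l-ribosomes, with a difference of 0.32 on the log2 scale (Rps27l-FLAG minus Rps27-FLAG, SE 0.092, edgeR adjusted p = 0.0458), where 0.565% of transcripts were called (0.466% higher, 0.0992% lower). Log2 IP/total ratios were -0.55, -0.73 and -0.59 in the Rps27-FLAG clones and -0.23, -0.48 and -0.16 in the Rps27l-FLAG clones, without overlap, and within each pool the Rps27l-FLAG clone was higher, by 0.32, 0.25 and 0.43.

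Levels of Chd1l in the fractions were set side by side. IP RPFs of the lines overlapped, at 42.4 to 47.2 CPM in Rps27-FLAG and 46.8 to 54.0 in Rps27l-FLAG, whereas total RPFs did not, at 67.6 to 70.4 and 54.9 to 65.4. The call rests close to the threshold. It was lost with voom (adjusted p = 0.0518), without the filter on low counts (0.0713), with the length trend removed (0.0668), with no replicate block and on leaving out any clone except Rps27l-FLAG replicate 2 (0.0555 to 0.256), while the difference itself stayed between 0.27 and 0.42.

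Chd6 was also less depleted in every Rps27l-FLAG clone (-0.23, -0.27 and -0.25) than in any Rps27-FLAG clone (-0.39, -0.54 and -0.37), with a difference of 0.19 (SE 0.083, edgeR adjusted p = 0.316) that did not pass the test. Chd7 had the reverse sign, -0.12 (SE 0.060, edgeR adjusted p = 0.411). With the length trend removed, a setting in which the fold limit of 0.25 was dropped after the data had been seen, Chd7 was called lower on Rps27l-ribosomes (-0.22, SE 0.060, adjusted p = 0.0355), where 1.39% of transcripts were called (1.1% higher, 0.288% lower). The differences of the other 7 members ran from -0.28 (Chd3, SE 0.200) to 0.22 (Chd5, SE 0.190), and none was called.

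Genes that work with the Chd proteins were followed in the same fits, whose shares of calls over all tested transcripts were 5.34% lower and 0.327% higher in Rps27-FLAG and 2.27% and 0.833% in Rps27l-FLAG, and with the clone block 22.9% and 18.3%, and 19% and 12%. Of 11 tested NuRD partners, 2 were lower in IP of Rps27-FLAG and 0 higher: Hdac2, a deacetylase (-0.28, edgeR adjusted p = 0.0274), and Mta1, a scaffold subunit (-0.36, adjusted p = 0.0270). In Rps27l-FLAG 0 were called (4 at an unadjusted p under 0.05, as were 1752 of all 10085 tested transcripts). With the clone block 7 were lower and 2 higher in Rps27-FLAG, and 5 lower and 0 higher in Rps27l-FLAG. With the length trend removed, 0 were called in either line without the block, and with it 6 were lower and 1 higher in Rps27-FLAG and 5 lower in Rps27l-FLAG. The fit with block and trend removed called 18.2% of all tested transcripts lower and 12.3% higher in Rps27-FLAG, and 13.2% and 9.14% in Rps27l-FLAG. The partner list had a median log2 fold change of -0.13 and -0.06 in the lines.

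Of 20 other tested ATPases of the Snf2 type, 4 were lower in IP of Rps27-FLAG: Ercc6l, which acts at anaphase DNA bridges (-0.54, edgeR adjusted p = 0.0115), Ep400 of the Tip60 complex (-0.52, adjusted p = 0.00946), Zranb3, a fork remodeler (-0.49, adjusted p = 0.0358), and the ubiquitin ligase Shprh (-0.41, adjusted p = 0.0200). In Rps27l-FLAG, Ercc6l (-0.43) and Shprh (-0.42) were lower. With the clone block 15 and 14 were lower and 0 higher. Their median log2 fold change was -0.32 in Rps27-FLAG and -0.26 in Rps27l-FLAG, with a median CDS of 3567 nt. With the length trend removed both medians were -0.07 and 0 were called in either line, and with the block added 9 were lower and 3 higher in Rps27-FLAG and 7 lower and 2 higher in Rps27l-FLAG. With trend removed and block added, 18.2% of all tested transcripts were lower and 12.3% higher in Rps27-FLAG, and 13.2% and 9.14% in Rps27l-FLAG. Of 12 tested binding partners of Chd proteins, 1 was lower in each line, Ctr9 of the Paf1 complex (-0.47 and -0.33), and the median of the list was 0.05 and 0.06. The clone block called 18.3% and 12% of all tested transcripts higher in the lines, and 22.9% and 19% lower. With it 5 of these partners were higher in each line, and 3 and 2 lower. With the length trend removed, 0 were lower in either line and 1 was higher, Parp1, the poly(ADP-ribose) polymerase, in Rps27-FLAG (0.30, edgeR adjusted p = 0.0499), and with the block added 5 were higher and 2 lower in each line. In the comparisons of total RPFs and of the IP effect between lines, 0 members of these lists were called. An unadjusted p under 0.05 was reached by 0 to 3 genes per list and comparison. Over all tested transcripts it was reached by 294, 574 and 580 of 10085 for total RPFs and 1216 of 10084 for the IP effect. With the replicate block the range per list was 0 to 6 for total RPFs, where 630, 1445 and 1540 of all transcripts reached it. That fit called 1 gene, Ino80, lower in Rps27l-FLAG against WT (-0.32, edgeR adjusted p = 0.0460), as it did 1.06% of all tested transcripts.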

How the data were processed

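Ribosome profiling libraries of 15 mESC samples were analysed from the deposited table of counts. Per the labels and methods, the authors trimmed reads with cutadapt 2.4, collapsed molecular identifiers with UMI-tools 1.0.1, aligned with Bowtie2 2.3.4.3 to GRCm38 coding transcripts, kept unique alignments, and assigned each read to its ribosomal A site, leaving out 15 codons at the start of a CDS and 5 at its end. The counts were not normalized by the authors. No per-sample column was left unused. Symbols and CDS lengths came from GENCODE M21 (GRCm38); 14 of 21727 transcripts had no entry.

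After leaving out 13 mitochondrially encoded transcripts, those over 2 CPM in at least 14 of 15 libraries were tested (10085) with edgeR 4.0.16 (R 4.3.3): TMM separately for IP and total libraries, quasi-likelihood F-test, Benjamini-Hochberg adjustment over all tested transcripts, threshold 0.05. Lines were compared in 1 fit of the 9 total libraries and IP with total within a line. The IP effect was compared between lines with clone and fraction within line, without Tmod3, with an absolute log2 fold change over 0.25. Clone ratios used 0.5 added counts. Levels are normalized CPM per kb of counted CDS. Alternatives were limma 3.58.1 (voom), DESeq2 1.42.0, other scaling and filters, the replicate block, removal of a trend with CDS length, and leaving out each clone. That trend was a loess (span 0.5) on log2 CDS length, per library, of log2 normalized CPM less the transcript's mean over the 15 libraries. SEs of edgeR were derived from the fold change and the F statistic. The IP and total library of a number come from 1 clone; their deviations from group means correlated with r = 0.468 to 0.790 (median 0.558). Libraries of different lines that share a number, and so a sequencing pool, correlated with r = -0.164 to 0.713. Libraries of a group differed beyond sampling noise. Figures were drawn with matplotlib 3.10.9.

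The members and gene lists were chosen with earlier results of these data known. Named genes were all members, at most 5 called genes per related list and comparison, and the 3 transcripts most correlated with Chd4 and Chd2; the NuRD partners quoted for their levels, Ino80, Parp1 and the markers were named after their values were seen. Replicates are separate clones. The p-values rest on the spread between them and on a variance estimate that edgeR shares over all tested transcripts. With the clone block each line has 3 pairs, so the very small p-values lean mostly on the shared estimate. They do not measure the spread of 3 clones alone. More counts give smaller counting error, which is largest for Chd3 and Chd5.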

Additional observations from a re-analysis of the deposited data

Results flagged for a closer look

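Chd1l met the criterion of an effect that differs between groups by a test of the difference itself: its log2 IP/total ratio was higher by 0.32 in Rps27l-FLAG than in Rps27-FLAG cells (edgeR adjusted p = 0.0458), in 3 of 3 sequencing pools. Whether the higher total RPFs of Chd1l in Rps27-FLAG clones or the IP RPFs carry the difference was not tested.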

How the results depend on the processing

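The count of members called in the 3 comparisons of total RPFs was 0 under every alternative, the replicate block and each left-out clone included. In IP against total RPFs of Rps27-FLAG the count of 3 became 7 with the replicate block and 0 to 5 on leaving out each clone (0 without replicate 2 or 3); with the block and a clone left out it was 5 to 7. In Rps27l-FLAG the count of 0 became 7 with the replicate block, 4 with the block and the length trend removed, 1 with DESeq2 and 0 to 1 on leaving out each clone (1 without replicate 3); with the block and a clone left out it was 6 to 8. In the difference between lines the count of 1 became 0 with voom, with DESeq2 (no adjusted p for 7 members, Chd1l included), without the filter on low counts, with the length trend removed and with no replicate block, and was 0 to 1 on leaving out each clone. Levels per kb moved by less than their SD with the whole CDS length or without TMM.

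Over all tested transcripts the replicate block raised the calls from 0 to 1, 144 and 137 in the comparisons of total RPFs, from 572 to 4154 in Rps27-FLAG and from 313 to 3128 in Rps27l-FLAG. With the length trend removed there were 148 and 6 without and 3075 and 2257 with the block. Leaving out a clone gave 0 to 1817 and 0 to 319 without and 3311 to 3384 and 2394 to 2511 with the block. The 57 calls of the difference became 11 with DESeq2, 28 with the length trend removed, 0 with no replicate block, and, with no fold limit, 150 with and 140 without the length trend.

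With the length trend removed the sign turned for Chd7 (0.25 with and without the block) and Chd5 (0.046, and 0.026 with the block) in Rps27-FLAG, and for Chd5 (0.19, and 0.18 with the block), Chd6 (0.040, and 0.042) and Chd7 (0.040, and 0.037) in Rps27l-FLAG. On leaving out each clone, values near 0 changed sign for Chd1 (-0.024 to 0.023; -0.024 with the block) and Chd3 (-0.032 to 0.13; -0.011 and -0.038 with the block) in Rps27-FLAG, and for Chd5 (-0.20 to 0.051; 0.0093 and 0.030 with the block) in Rps27l-FLAG. The fits with a block and a left-out clone, and that without fold limit and length trend, were chosen after seeing the data. Chd3 and Chd5, with 34 to 132 counts per library, are the members that depth limits most.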
